A study of Mus musculus with 12 samples.

Results

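The 10 genes described here encode 9 transcription factors and 1 co-repressor, Ripply2, of the paraxial mesoderm and of the somites that form from it. They are Msgn1, Tbx6, Mesp2, Ripply2, Foxc1, Tcf15, Meox1, Meox2, Pax1 and Pax3. They were chosen by gene symbol, and all 10 were found among the 35856 rows of the expression table. Expression was measured by sequencing polyadenylated RNA of cardiac precursors, mesodermal cells on the way to the heart, grown from C57BL/6 mouse embryonic stem cells. Every line carried the plant protein TIR1 and an auxin-inducible degron (AID) on SUZ12, MTF2 or JARID2, which are subunits of Polycomb repressive complex 2 (PRC2). The 6 groups, with 2 libraries each, were SUZ12-AID with auxin, MTF2-AID with auxin, AID-JARID2 with auxin, and the same 3 lines untreated. The auxin analog was indole-3-acetic acid at 50 µM, and the labels do not say when it was added. Differentiation took embryoid bodies for 48 h, reaggregated cells for 43 h and a monolayer for 32 h.

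Paraxial mesoderm lies beside the neural tube and is cut, from head to tail, into somites, which give rise to vertebrae, skeletal muscle and dermis. Cells leave the primitive streak, pass through the unsegmented presomitic mesoderm under WNT and FGF signalling, and form a somite boundary where NOTCH-driven oscillations stop. Heart precursors come from lateral plate mesoderm, which leaves the streak beside the paraxial lineage. PRC2 places methyl groups on histone H3 at CpG-rich promoters of developmental regulators that a cell does not use. SUZ12 belongs to the core of the complex, while MTF2 and JARID2 join it in separate subtypes.

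The deposited values are TPM, a measure of transcript abundance scaled for transcript length and for the size of the library, so levels can be set side by side between genes. Steps in the TPM values gave whole reads, between 10138920 and 17173072 per library, and 18964 to 21026 genes were above 0. The degron acts on the protein, and the RNA of the tagged gene was no lower with auxin in MTF2-AID or AID-JARID2. In SUZ12-AID, Suz12 was at 106 and 109 TPM with auxin and somewhat higher, at 113 and 127 TPM, untreated. Jarid2 stood at 104 and 113 TPM with auxin and at 45.3 and 43.5 TPM without it in AID-JARID2. Of 16 markers of lateral plate and cardiac precursors none was at 0 in both libraries of a group, and Tbx5, which marks the heart field, stayed under 1 TPM throughout. Their sum was 197 to 236 TPM in AID-JARID2 with auxin and 2748 to 2776 TPM in untreated AID-JARID2, against 1755 to 3350 TPM in the groups of the other lines. The design has no auxin control without a degron and only 1 line per subunit, so effects of auxin or of the line cannot be told apart from loss of the subunit. Libraries of a group are described as biological replicates, but separate cultures are not mentioned, so the p-values reflect the spread between libraries alone, which may be technical. In bulk RNA, fewer cells of a type and less RNA per cell cannot be told apart.

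Msgn1, Tbx6 and Mesp2, which act in the presomitic mesoderm, were highest in AID-JARID2, with and without auxin, and Foxc1 was lowest there. With auxin, Tbx6, Foxc1 and Tcf15 rose in SUZ12-AID, Msgn1 and Tbx6 fell and Tcf15 rose in AID-JARID2, and no gene of the set passed the test in MTF2-AID. Meox2, Pax1, Pax3 and Ripply2 stayed at or under 1.22 TPM in all 12 libraries. These 4 did not reach 1 TPM in 2 libraries and are therefore outside the test, which was made on 15663 genes with limma on log2(TPM + 1). A gene was called where its p, adjusted over all those genes by the Benjamini-Hochberg method, was under 0.05. Pairs of values below are replicate 1 and then replicate 2.

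**Figure D1:**
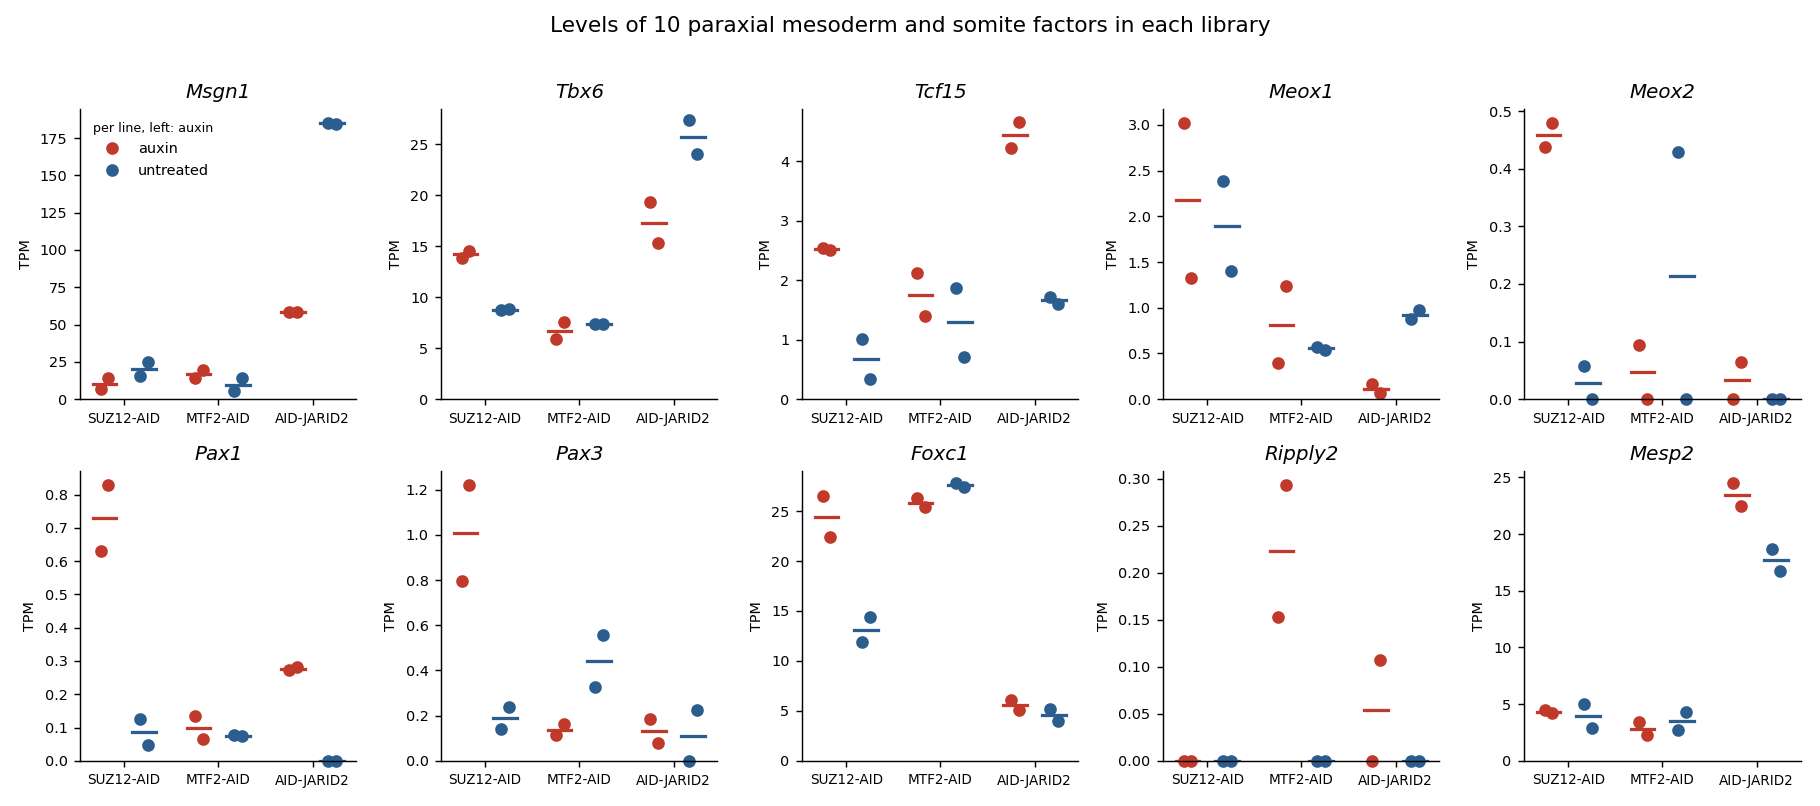
Level in TPM of each of the 10 genes in the 12 libraries, on a linear axis that starts at 0 and differs between panels; points are libraries, bars are means of the 2 libraries, and auxin (red) stands left of untreated (blue) within each line. Msgn1 and Mesp2 stand highest in AID-JARID2 and Foxc1 lowest there, while Meox2, Pax1, Pax3 and Ripply2 lie at or under 1.22 TPM.

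The untreated lines, which have the same differentiation times, were compared first. No differentiation run is named for them, so differences between lines cannot be told apart from differences between runs. Msgn1 encodes mesogenin 1, a basic helix-loop-helix factor that drives cells of the streak into presomitic mesoderm. It was at 185 and 185 TPM in untreated AID-JARID2, at 5.33 and 14.4 TPM in untreated MTF2-AID and at 15.7 and 25.1 TPM in untreated SUZ12-AID. Both AID-JARID2 libraries thus stood far above the other 4, which lay between 5.33 and 25.1 TPM. The means of untreated AID-JARID2 were 18.8-fold above those of untreated MTF2-AID (log2 fold change of TPM + 1 4.24, SE 0.40, adjusted p = 3.47e-05) and 9.06-fold above those of untreated SUZ12-AID (3.15, SE 0.40, adjusted p = 2.95e-04). Untreated MTF2-AID minus untreated SUZ12-AID was -1.08 and was not called (95% interval -1.97 to -0.19, adjusted p = 0.129), but passed without MTF2-AID untreated replicate 2 (adjusted p = 0.0372).

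Tbx6 encodes a T-box factor without which, in mouse embryos, posterior paraxial mesoderm takes on a neural fate. It read 27.4 and 24.0 TPM in untreated AID-JARID2, 7.34 and 7.41 TPM in untreated MTF2-AID and 8.74 and 8.85 TPM in untreated SUZ12-AID. The AID-JARID2 level was 3.49-fold that of MTF2-AID (log2 fold change 1.67, SE 0.14, adjusted p = 1.49e-05) and 2.92-fold that of SUZ12-AID (1.45, SE 0.14, adjusted p = 5.02e-05). Mesp2, a basic helix-loop-helix factor of the anterior presomitic mesoderm that TBX6 activates and that sets the somite boundary, was also highest in AID-JARID2. Its level was 18.7 and 16.7 TPM in untreated AID-JARID2, 2.73 and 4.33 TPM in untreated MTF2-AID and 5.02 and 2.88 TPM in untreated SUZ12-AID. The log2 fold change of untreated AID-JARID2 was 2.07 over untreated MTF2-AID (adjusted p = 1.13e-04) and 1.95 over untreated SUZ12-AID (adjusted p = 2.14e-04, SE 0.23 for both). Both AID-JARID2 libraries were above the other 4 untreated ones for Tbx6 and for Mesp2, and for Mesp2 the MTF2-AID and SUZ12-AID libraries overlapped.

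Foxc1, a forkhead factor of somites and of the developing heart and vessels, ran the other way. It stood at 5.16 and 3.95 TPM in untreated AID-JARID2, at 27.8 and 27.4 TPM in untreated MTF2-AID and at 11.9 and 14.4 TPM in untreated SUZ12-AID. No 2 of these groups overlapped. The log2 fold change was -2.37 for untreated AID-JARID2 over untreated MTF2-AID (adjusted p = 2.02e-06), -1.35 for untreated AID-JARID2 over untreated SUZ12-AID (adjusted p = 9.04e-05) and 1.02 for untreated MTF2-AID over untreated SUZ12-AID (adjusted p = 0.00258, SE 0.14 for each). Tcf15 and Meox1 were called in none of these comparisons between untreated lines. The largest difference among them was that of Meox1 in untreated MTF2-AID minus untreated SUZ12-AID, at -0.87 (95% interval -1.54 to -0.20, adjusted p = 0.108, and 0.0487 without SUZ12-AID untreated replicate 2). Tcf15 in untreated AID-JARID2 minus untreated SUZ12-AID was at 0.70 (95% interval 0.10 to 1.29, adjusted p = 0.0797) and passed without SUZ12-AID untreated replicate 1 (0.0414) and without MTF2-AID untreated replicate 1 (0.0443) or 2 (0.0437).

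Of the 6 genes tested, 4 were called between untreated AID-JARID2 and untreated SUZ12-AID, where 27.6% of all genes tested were called, and 4 between untreated AID-JARID2 and untreated MTF2-AID, where 33.4% were. In both comparisons 3 of the 4 were higher in AID-JARID2 and 1 was lower, beside 15.2% of all genes higher and 12.4% lower against SUZ12-AID and 15.8% higher and 17.6% lower against MTF2-AID. Between untreated MTF2-AID and untreated SUZ12-AID 1 gene, Foxc1, was called, and it was higher, beside 8.65% of all genes called and 5.5% called higher. Markers of the primitive streak moved with these differences. Of 9 streak markers 8 were called higher in untreated AID-JARID2 than in untreated SUZ12-AID, and none of the 9 was at 0 in both libraries of any group. Their sum was 1382 to 1435 TPM in untreated AID-JARID2, 150.2 to 157 TPM in untreated MTF2-AID and 163 to 185 TPM in untreated SUZ12-AID. T, the T-box factor that marks the streak, was at 307 and 297 TPM in untreated AID-JARID2 and at 28.5 to 34.2 TPM in the other untreated libraries. Of 10 endothelial markers 8 were called lower and 1, Kdr, higher in untreated AID-JARID2 than in each other untreated line. In untreated MTF2-AID 8 were called higher and 1, Pecam1, lower than in untreated SUZ12-AID, and none of the 10 was at 0 in both libraries of a group. Their sum was 162 to 166 TPM in untreated AID-JARID2, 200.1 to 200.4 TPM in untreated MTF2-AID and 150.0 to 191 TPM in untreated SUZ12-AID, so the sums of untreated AID-JARID2 lay within the range of untreated SUZ12-AID. Pluripotency markers were called higher for 6 of 11 and lower for 1 in untreated AID-JARID2 against untreated SUZ12-AID. Against untreated MTF2-AID 6 were called higher and 4 lower. Their summed levels, given further below, were higher in untreated AID-JARID2 than in both other untreated lines. The part of all these markers in the differences of Msgn1, Tbx6, Mesp2 and Foxc1 was not tested.

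The sequences just upstream of these 4 genes are shown because the 4 differ between the untreated lines and because PRC2 is known for binding at CpG-rich DNA. Each is the 250 bases before the start of transcription in RefSeq on GRCm38.p6, read 5′ to 3′ on the strand of the gene, with every CpG in capitals. The window of Msgn1 is chr12:11208949-11209198 on the minus strand, that of Tbx6 is chr7:126781233-126781482 on the plus strand, that of Mesp2 is chr7:79810477-79810726 on the plus strand and that of Foxc1 is chr13:31806396-31806645 on the plus strand.
Msgn1: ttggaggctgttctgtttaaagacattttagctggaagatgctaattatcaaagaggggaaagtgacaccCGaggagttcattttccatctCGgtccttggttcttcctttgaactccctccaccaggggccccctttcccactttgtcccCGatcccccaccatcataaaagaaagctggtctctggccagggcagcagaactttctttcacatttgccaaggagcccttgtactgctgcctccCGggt
Tbx6: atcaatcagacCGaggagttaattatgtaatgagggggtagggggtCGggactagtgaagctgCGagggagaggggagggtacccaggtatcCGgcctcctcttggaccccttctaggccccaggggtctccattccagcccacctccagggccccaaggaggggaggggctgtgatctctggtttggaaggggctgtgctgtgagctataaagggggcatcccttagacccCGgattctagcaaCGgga
Mesp2: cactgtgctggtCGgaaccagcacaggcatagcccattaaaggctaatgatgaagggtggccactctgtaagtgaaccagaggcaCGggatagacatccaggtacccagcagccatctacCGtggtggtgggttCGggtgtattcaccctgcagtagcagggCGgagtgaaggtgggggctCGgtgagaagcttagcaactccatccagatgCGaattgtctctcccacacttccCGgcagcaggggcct
Foxc1: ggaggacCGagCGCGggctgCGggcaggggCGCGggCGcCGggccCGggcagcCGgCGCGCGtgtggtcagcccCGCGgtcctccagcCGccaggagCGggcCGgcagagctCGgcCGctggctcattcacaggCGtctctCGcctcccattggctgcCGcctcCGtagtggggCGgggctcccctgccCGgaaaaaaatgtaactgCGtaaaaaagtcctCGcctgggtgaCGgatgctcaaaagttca
The Foxc1 window holds 29 CpG and is 70.8% G+C, with more CpG than 93.2% of the 32536 distinct promoter windows of the same length. Msgn1 holds 4 CpG, Tbx6 6 and Mesp2 8, where the median of all windows is 6. Foxc1 thus held the most CpG of the 4, and the other 3 lay near the median. The windows end at the start of transcription and say nothing of CpG beyond it. A part of CpG content in the levels of these genes was not tested. Among the other windows found, Pax1 held 10 CpG, Meox2 12 and Ripply2 26. The table holds windows for 7 of the 10 genes, and those of Tcf15, Meox1 and Pax3 were not used here.

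The 250-base windows were also searched on both strands for short motifs of factors that act in presomitic mesoderm. These were the E-box CANNTG, present in 66.2% of all windows, the T-box core GGTGTG, present in 16.3%, the core TGGGAA of the NOTCH partner RBPJ, present in 21.6%, and the core CTTTG of the WNT effectors TCF and LEF, present in 48.7%. The Msgn1 window held 3 matches to the TCF and LEF core, 1 to the RBPJ core and 1 E-box. The stretch chr12:11209042-11209159, minus strand, carries the TCF, LEF and RBPJ matches, which stand in capitals. The RBPJ match and the last TCF and LEF match lie side by side without overlap.
Msgn1: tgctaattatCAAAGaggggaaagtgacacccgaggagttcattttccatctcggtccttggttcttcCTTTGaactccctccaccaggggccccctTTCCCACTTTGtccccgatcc
Mesp2 held 1 E-box, Ripply2 1 T-box core and 2 E-boxes, Pax1 2 T-box cores, and Meox2 1 E-box and 1 RBPJ core. Tbx6 and Foxc1 held none of the 4 motifs in this window. Such matches describe letters in the window and say nothing of binding.

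The auxin comparison in SUZ12-AID asked which transcripts differ once the core subunit is targeted. Foxc1 rose to 26.5 and 22.4 TPM with auxin, against 11.9 and 14.4 TPM in untreated cells. Both auxin libraries were above both untreated ones, and the means differed 1.86-fold (log2 fold change 0.85, SE 0.14, adjusted p = 0.00278). Tbx6 rose to 13.9 and 14.6 TPM with auxin, against 8.74 and 8.85 TPM untreated, again without overlap (log2 fold change 0.64, SE 0.14, adjusted p = 0.0105). The call of Tbx6 was lost without auxin replicate 2 (adjusted p = 0.0737), with a variance weight per line (0.116), with quantile normalization (0.0554) and with the 4 libraries of the line alone (0.0636).

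Tcf15, also called Paraxis, encodes a basic helix-loop-helix factor that makes somites epithelial. It read 2.55 and 2.51 TPM with auxin and 1.01 and 0.346 TPM untreated in SUZ12-AID. These values rest on 20 and 15 reads with auxin and 10 and 3 reads untreated. The groups did not overlap, and the gene rose (log2 fold change 1.10, SE 0.27, adjusted p = 0.0168). This call was lost without auxin replicate 1 (adjusted p = 0.0618), without auxin replicate 2 (0.0862) and without untreated replicate 2 (0.0785), and also with quantile normalization (0.0770) and with a variance weight per line (0.121).

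Msgn1 was at 6.94 and 13.9 TPM with auxin and at 15.7 and 25.1 TPM untreated in SUZ12-AID. The groups did not overlap, but replicates differed by nearly as much as groups, and the difference was not called (log2 fold change -0.94, 95% interval -1.83 to -0.05, adjusted p = 0.137). Mesp2 stood at 4.51 and 4.19 TPM with auxin and at 5.02 and 2.88 TPM untreated, and Meox1, a homeobox factor of the early somite, at 3.02 and 1.33 TPM with auxin and 2.39 and 1.40 TPM untreated. For both genes the groups overlapped and neither was called (log2 fold change 0.15 for Mesp2, 95% interval -0.38 to 0.67, and 0.10 for Meox1, 95% interval -0.57 to 0.77).

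In SUZ12-AID 3 of the 6 genes tested were thus higher with auxin and 0 were lower, beside 15.1% of all genes tested called higher and 4.05% called lower. The median log2 fold change was 0.39 over the 6 genes and 0.06 over all genes tested. Endothelial markers moved with Foxc1, with 8 of 10 called higher and 1 lower and a sum of 225 to 228 TPM with auxin and 150.0 to 191 TPM untreated. None of them was at 0. Pluripotency markers were called higher for 9 of 11, with a sum of 325 to 403 TPM with auxin and 183 to 202 TPM untreated, while streak markers summed to 158 to 194 TPM with auxin and 163 to 185 TPM untreated. Lateral plate and cardiac markers summed to 1755 to 1857 TPM with auxin and 2992 to 3350 TPM untreated. Of the 15 tested, 4 were called higher and 4 lower. The part of endothelial, pluripotency, and lateral plate and cardiac markers in these results was not tested.

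In AID-JARID2 the auxin comparison gave a different set of differences. Msgn1 fell to 58.2 and 58.2 TPM with auxin, against 185 and 185 TPM in untreated cells, on 186 and 216 reads with auxin and 546 and 485 untreated. The replicates lay within 1 TPM of each other, and the mean with auxin was 3.18-fold lower (log2 fold change -1.65, SE 0.40, adjusted p = 0.00883). With auxin Msgn1 still stood above every library of the other lines. Tbx6 fell to 19.4 and 15.3 TPM with auxin, against 27.4 and 24.0 TPM untreated, and the groups did not overlap (log2 fold change -0.55, SE 0.14, adjusted p = 0.0111). Its call was lost without auxin replicate 2 (adjusted p = 0.109) and without untreated replicate 1 (0.0895).

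Tcf15 rose to 4.23 and 4.66 TPM with auxin in AID-JARID2, against 1.72 and 1.61 TPM untreated, on 32 and 41 reads with auxin and 12 and 10 untreated. The auxin libraries were the highest of all 12 for this gene (log2 fold change 1.03, SE 0.27, adjusted p = 0.0125). The call was lost without auxin replicate 2 (adjusted p = 0.0750), without untreated replicate 1 (0.0518) and without untreated replicate 2 (0.0628). Mesp2 was at 24.5 and 22.5 TPM with auxin and at 18.7 and 16.7 TPM untreated, so both auxin libraries were above both untreated ones, but the difference was not called (log2 fold change 0.39, 95% interval -0.14 to 0.91, adjusted p = 0.234). With the 4 libraries of the line alone its adjusted p was 0.0120.

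Meox1 was at 0.161 and 0.0692 TPM with auxin and 0.872 and 0.978 TPM untreated in AID-JARID2, from 2 and 1 reads with auxin and 10 in each untreated library. Both auxin libraries were below both untreated ones, and the difference was not called (log2 fold change -0.79, 95% interval -1.46 to -0.12, adjusted p = 0.0659). It passed with a pseudocount of 0.1 TPM (log2 fold change -2.28, adjusted p = 0.00993), with a variance weight per line (0.0142) and without SUZ12-AID auxin replicate 1 (0.0391) or 2 (0.0378). Foxc1 was at 6.09 and 5.05 TPM with auxin and at 5.16 and 3.95 TPM untreated, and the groups overlapped (log2 fold change 0.25, 95% interval -0.07 to 0.56, adjusted p = 0.212).

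Of the 6 genes tested in AID-JARID2, 1 was called higher and 2 lower with auxin, beside 19.5% of all genes called higher and 17% called lower. With 36.5% of all genes called in either direction, 3 calls in 6 genes are close to the background of this comparison. The median was -0.15 over the 6 genes and 0.01 over all genes. Markers of other cells moved with these calls. Pluripotency markers were called higher for 10 of 11, with a sum of 3412 to 3468 TPM with auxin and 804 to 809 TPM untreated and none of them at 0. Lateral plate and cardiac markers were called lower for 13 of 15 tested, with the sums given above. Neural markers were called higher for 6 of 7 tested, with a sum of 433 to 451 TPM with auxin and 98.6 to 101 TPM untreated, where Pax6 was at 0. Endothelial markers summed to 36.1 to 37.6 TPM with auxin and 162 to 166 TPM untreated. Of the 10, 2 were called higher (Cd34 and Esam) and 3 lower (Etv2, Kdr and Pecam1), so the fall of the sum was not shared by all. Streak markers summed to similar levels, at 1395 to 1476 TPM with auxin and 1382 to 1435 TPM untreated, with 2 called higher and 4 lower. The part of the pluripotency, cardiac, neural and endothelial markers in the fall of Msgn1 and Tbx6 and the rise of Tcf15 was not tested.

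**Figure D2:**
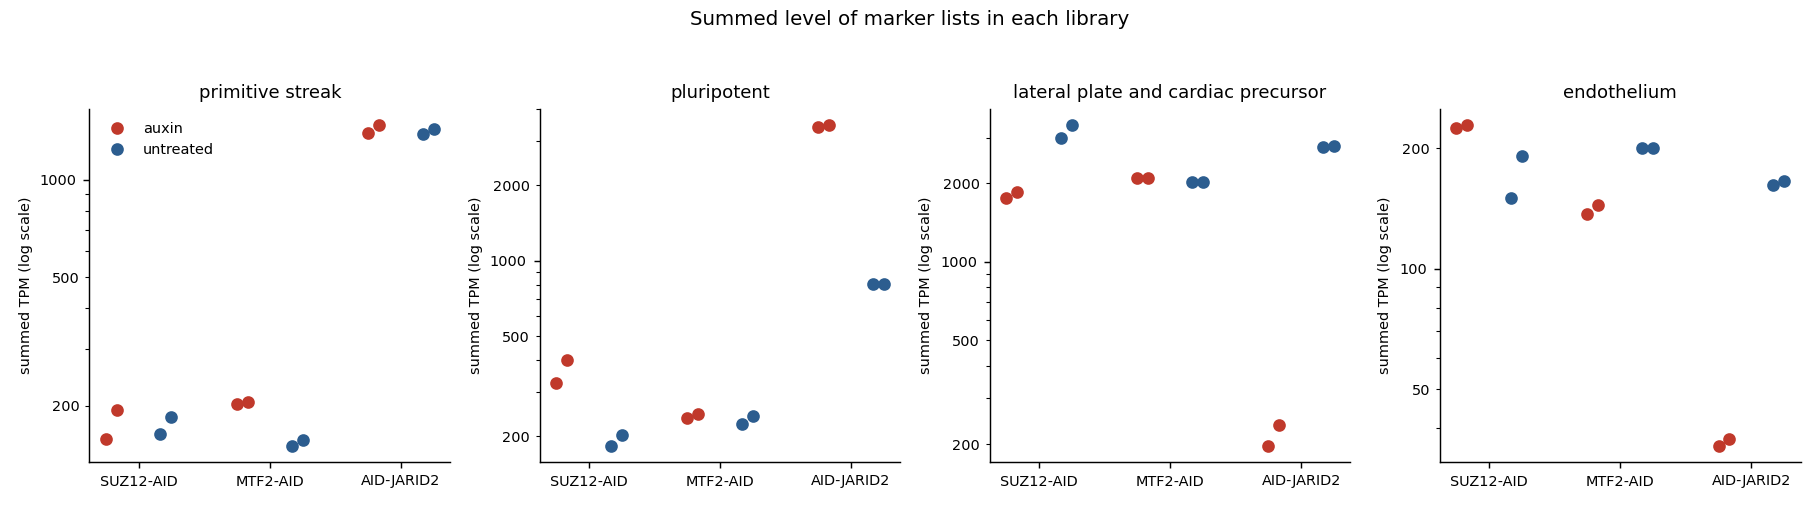
Summed TPM, on a log axis, of markers of primitive streak, pluripotent cells, lateral plate and cardiac precursors, and endothelium; the points are the lower and the higher library of each group, and auxin (red) stands left of untreated (blue) within each line. Streak markers are high in all 4 AID-JARID2 libraries, and in AID-JARID2 with auxin pluripotency markers reach 3468 TPM while cardiac markers are at 197 to 236 TPM.

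In MTF2-AID 0 of the 6 genes were called at an adjusted p under 0.05 with limma, where 0.0638% of all genes tested, or 10 genes, were called, 0.0447% higher and 0.0192% lower. The median was 0.04 over the 6 genes and 0.01 over all genes. At an unadjusted p under 0.05 there were also 0 of the 6 genes, and 1489 genes in all. Msgn1 read 14.3 and 19.6 TPM with auxin and 5.33 and 14.4 TPM untreated, with overlapping groups (log2 fold change 0.85, 95% interval -0.04 to 1.73). Tbx6 was at 5.87 and 7.57 TPM with auxin and 7.34 and 7.41 TPM untreated (-0.13, 95% interval -0.44 to 0.18). Foxc1 was at 26.3 and 25.4 TPM with auxin and 27.8 and 27.4 TPM untreated (-0.09, 95% interval -0.41 to 0.22). For Foxc1 both auxin libraries were below both untreated ones, but by little, and for Tbx6 the groups overlapped. Mesp2 stood at 3.39 and 2.27 TPM with auxin and 2.73 and 4.33 TPM untreated, Tcf15 at 2.12 and 1.40 TPM with auxin and 1.88 and 0.714 TPM untreated, and Meox1 at 0.396 and 1.23 TPM with auxin and 0.570 and 0.543 TPM untreated. The groups of all 3 overlapped. The 95% intervals of Tcf15 (-0.29 to 0.90), Meox1 (-0.49 to 0.85) and Mesp2 (-0.76 to 0.29) include differences of either sign, as does that of Msgn1.

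**Figure D3:**
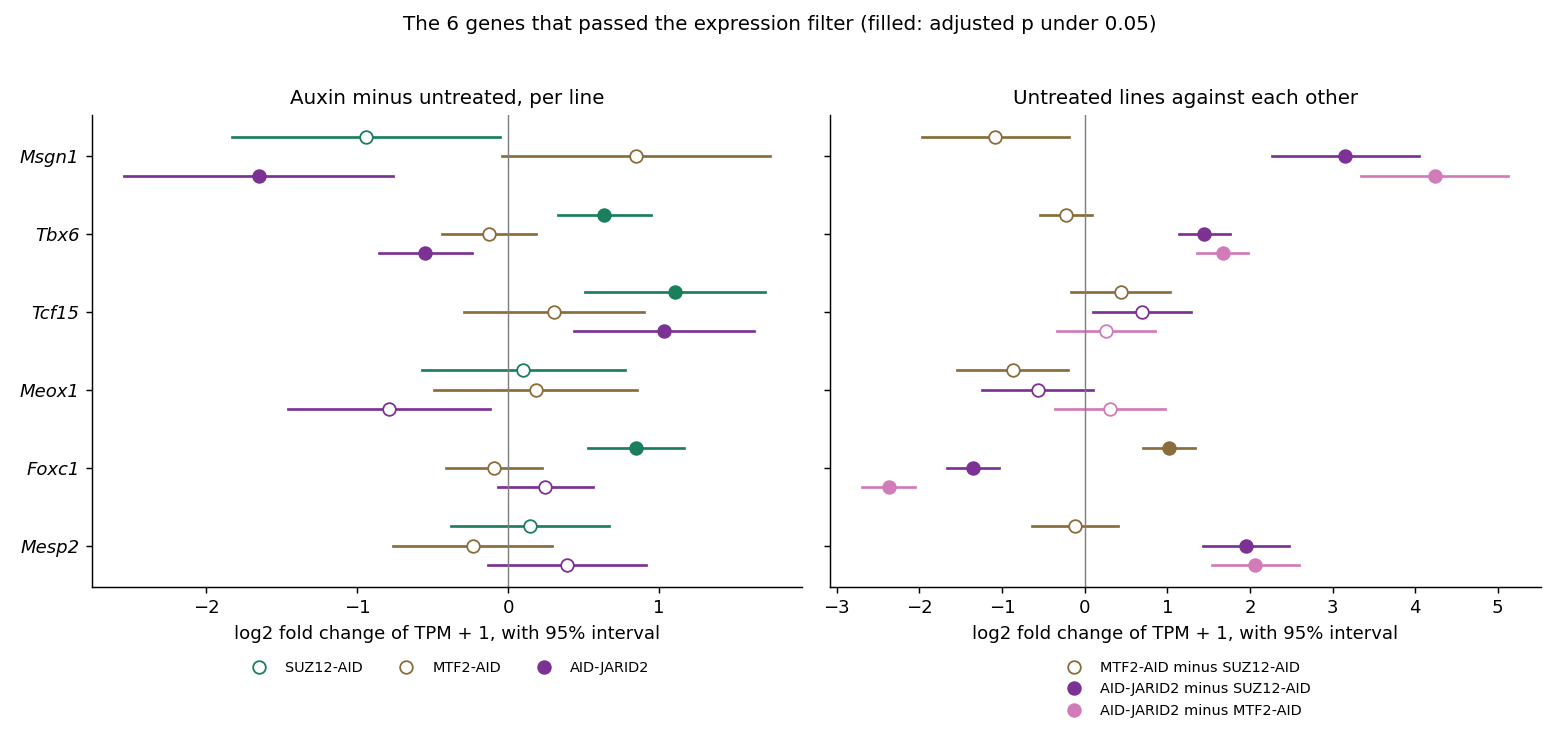
Log2 fold change of TPM + 1 with its 95% interval for the 6 genes tested, as auxin minus untreated within each line (left) and between untreated lines (right); filled points passed an adjusted p of 0.05. On the left Tbx6 lies at 0.64 in SUZ12-AID and -0.55 in AID-JARID2, and on the right Msgn1 lies at 3.15 and 4.24 for AID-JARID2 over the other lines while Foxc1 lies at -1.35 and -2.37.

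Differences between the auxin effects of the lines were tested as such. The auxin effect on Tbx6 in AID-JARID2 minus that in SUZ12-AID was -1.19 (SE 0.20, adjusted p = 0.00181), and in MTF2-AID minus SUZ12-AID it was -0.76 (SE 0.20, adjusted p = 0.0340). The MTF2-AID difference lost its call without SUZ12-AID auxin replicate 1 (adjusted p = 0.0587) or 2 (0.109), without MTF2-AID auxin replicate 1 (0.119) and without MTF2-AID untreated replicate 1 (0.0897) or 2 (0.0847). It was also lost without the filter (0.0605), with quantile normalization (0.109) and with a variance weight per line (0.113). Foxc1 differed by -0.94 between MTF2-AID and SUZ12-AID (SE 0.20, adjusted p = 0.0151), and this call was lost without MTF2-AID auxin replicate 2 (adjusted p = 0.0587) and without MTF2-AID untreated replicate 1 (0.0539). Its difference between AID-JARID2 and SUZ12-AID was -0.60 (95% interval -1.05 to -0.15) and did not pass (adjusted p = 0.0542). It passed without SUZ12-AID untreated replicate 2 (0.0284), without AID-JARID2 untreated replicate 2 (0.0346), with a pseudocount of 5 TPM (0.0214) and with a filter at 5 TPM (0.0468). Msgn1 differed by -2.50 between AID-JARID2 and MTF2-AID (SE 0.56, adjusted p = 0.00937). For Msgn1 the difference was -0.71 between AID-JARID2 and SUZ12-AID (95% interval -1.97 to 0.55, adjusted p = 0.409) and 1.79 between MTF2-AID and SUZ12-AID (95% interval 0.53 to 3.04, adjusted p = 0.0719), and neither passed. That of MTF2-AID minus SUZ12-AID passed without SUZ12-AID untreated replicate 1 (adjusted p = 0.0474), without MTF2-AID untreated replicate 2 (0.0153), with median-of-ratios scaling (0.0490) and with quantile normalization (0.0466).

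For Tcf15, which rose in SUZ12-AID and in AID-JARID2, the auxin effects of these lines differed by -0.07 (95% interval -0.91 to 0.77), and no difference between lines was called. Meox1 and Mesp2 were not called in any of the 3 differences. Of 6 genes tested 1 was called lower for AID-JARID2 minus SUZ12-AID, where 15% of all genes were (24% in either direction), 2 for MTF2-AID minus SUZ12-AID, where 9.11% were (11.1% in either direction), and 1 for AID-JARID2 minus MTF2-AID, where 11.7% were (24.3% in either direction). The calls were Tbx6, then Foxc1 and Tbx6, then Msgn1. Each line had untreated libraries of its own, but the differences share lines, so they are not independent of each other.

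Markers of other cells moved with these differences. Of all genes tested, 2% were called higher and 9.11% lower for MTF2-AID minus SUZ12-AID. For AID-JARID2 minus SUZ12-AID 9% were higher and 15% lower, and for AID-JARID2 minus MTF2-AID 12.6% were higher and 11.7% lower. For MTF2-AID minus SUZ12-AID 8 of 10 endothelial markers were called lower and 1 higher, and 7 of 11 pluripotency markers were called lower. For AID-JARID2 minus SUZ12-AID 14 of 15 lateral plate and cardiac markers and 8 of 10 endothelial markers were called lower, while 6 of 11 pluripotency markers were called higher and 2 lower. For AID-JARID2 minus MTF2-AID 13 of 15 lateral plate and cardiac markers were called lower, 8 of 11 pluripotency markers were called higher and 1 lower, and 5 of 10 endothelial markers were called higher and 2 lower. The summed levels behind these counts in SUZ12-AID and AID-JARID2 are given with each line, and in MTF2-AID the endothelial markers summed to 137 to 144 TPM with auxin and 200.1 to 200.4 TPM untreated and the pluripotency markers to 236 to 245 TPM with auxin and 224 to 240.2 TPM untreated. Their part in the differences of Msgn1, Tbx6 and Foxc1 was not tested.

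The 4 genes outside the test were low throughout. Pax1 encodes a paired-box factor of the sclerotome, which forms the vertebrae, and is also made in pharyngeal endoderm. It was at 0.631 and 0.830 TPM with auxin and 0.124 and 0.0476 TPM untreated in SUZ12-AID, from 12 and 12 reads with auxin and 3 and 1 untreated. In AID-JARID2 it was at 0.273 and 0.282 TPM with auxin, from 5 and 6 reads, and at 0 in both untreated libraries, where 3 reads would give 0.177 and 0.199 TPM. In both lines all auxin libraries were above all untreated ones. Without a filter on low values Pax1 passed in SUZ12-AID (log2 fold change 0.67, adjusted p = 0.00124) and in AID-JARID2 (0.35, adjusted p = 0.00854). MTF2-AID held 2 and 1 reads with auxin and 1 and 1 untreated. AI646519, a gene on the opposite strand, overlaps Pax1 on chromosome 2, and the strand setting of the counting is not given in the sources used here.

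Endoderm markers moved with Pax1. Their sum over 11 genes was 132 to 167 TPM with auxin and 82.3 to 88.0 TPM untreated in SUZ12-AID, and 794 to 823 TPM with auxin and 131 to 142 TPM untreated in AID-JARID2. Shh was at 0 in all 8 of these libraries, and Pax9, a close relative of Pax1, was at 0 in the 4 of AID-JARID2. All 4 of the endoderm markers tested, Cldn6, Epcam, Foxa2 and Sox17, were called higher in SUZ12-AID, where 15.1% of all genes were. In AID-JARID2, where 19.5% of all genes were called higher, Cldn6, Epcam and Foxa2 were, 3 of the 4. Sox17 was not called there (log2 fold change -0.09, adjusted p = 0.702). The part of endoderm and pluripotency markers in the values of Pax1 was not tested.

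Pax3, a paired-box factor of the dermomyotome and of muscle precursors that is also made in dorsal neural tube and neural crest, was at 0.797 and 1.22 TPM with auxin and 0.140 and 0.240 TPM untreated in SUZ12-AID. These came from 18 and 21 reads with auxin and 4 and 6 untreated, and the groups did not overlap. Without the filter the log2 fold change was 0.75 (adjusted p = 0.0113). In MTF2-AID the levels were 0.113 and 0.162 TPM with auxin and 0.326 and 0.558 TPM untreated, the other way round. In AID-JARID2 they were 0.184 and 0.0790 TPM with auxin and 0 and 0.223 TPM untreated. Without the filter the auxin effect on Pax3 in SUZ12-AID was above that in both other lines, with a difference of -1.09 for MTF2-AID minus SUZ12-AID (adjusted p = 0.0172) and of -0.72 for AID-JARID2 minus SUZ12-AID (adjusted p = 0.0465). Of 10 neural crest markers tested 4 were called higher and 1 lower in SUZ12-AID, where 15.1% and 4.05% of all genes were, and their sum was 358 to 365 TPM with auxin and 416 to 453 TPM untreated, with Tfap2b at 0 in all groups. Their part in the values of Pax3 was not tested.

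Meox2, the homeobox partner of Meox1 in somites, which is also made in vessels and limb muscle, was at 0.437 and 0.479 TPM with auxin and 0.0575 and 0 TPM untreated in SUZ12-AID. That is 6 and 5 reads with auxin against 1 and 0 untreated, and without the filter it did not pass (log2 fold change 0.50, adjusted p = 0.0552). In the other 8 libraries it ranged between 0 and 0.429 TPM. Ripply2, a target of MESP2 that ends TBX6 activity in the forming somite, was all but absent. It had 1 and 2 reads in MTF2-AID with auxin, 1 in replicate 2 of AID-JARID2 with auxin and 0 in the other 9 libraries, where 3 reads would give 0.284 to 0.530 TPM.

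Set side by side, the levels of the 10 genes spanned from 0 to 185 TPM. In SUZ12-AID with auxin the order of means was Foxc1 at 24.4 TPM, Tbx6 at 14.2, Msgn1 at 10.4, Mesp2 at 4.35, Tcf15 at 2.53, Meox1 at 2.17, Pax3 at 1.01, Pax1 at 0.731, Meox2 at 0.458 and Ripply2 at 0. In AID-JARID2 with auxin it was Msgn1 at 58.2 TPM, Mesp2 at 23.5, Tbx6 at 17.3, Foxc1 at 5.57 and Tcf15 at 4.45, and the other 5 were under 0.3 TPM. In untreated AID-JARID2 Msgn1 at 185 TPM was followed by Tbx6 at 25.7, Mesp2 at 17.7 and Foxc1 at 4.56. In MTF2-AID with auxin Foxc1 led at 25.8 TPM, followed by Msgn1 at 16.9, and in untreated MTF2-AID Foxc1 led at 27.6 TPM, followed by Msgn1 at 9.85. In untreated SUZ12-AID Msgn1 led at 20.4 TPM, followed by Foxc1 at 13.1. Msgn1 thus had the highest mean of the 10 genes in both groups of AID-JARID2 and in untreated SUZ12-AID, and Foxc1 in the other 3 groups.

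Among the groups, the 2 of AID-JARID2 took the top 2 places for Msgn1, Tbx6 and Mesp2 and stood apart from all groups of the other lines. Below them the groups of SUZ12-AID and MTF2-AID overlapped for Mesp2. For Msgn1, untreated SUZ12-AID overlapped MTF2-AID with auxin, and SUZ12-AID with auxin overlapped untreated MTF2-AID. For Tbx6, SUZ12-AID with auxin came next, apart from untreated SUZ12-AID, and the 2 groups of MTF2-AID overlapped at the low end. For Foxc1, both groups of MTF2-AID and SUZ12-AID with auxin lay between 22.4 and 27.8 TPM, untreated SUZ12-AID lay below them, and the groups of AID-JARID2 overlapped at the low end.

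Across the 12 libraries Pearson's r of log2(TPM + 1) was 0.78 between Msgn1 and Tbx6, 0.82 between Msgn1 and Mesp2 and 0.83 between Tbx6 and Mesp2. With Foxc1 it was -0.91 for Msgn1, -0.80 for Tbx6 and -0.91 for Mesp2. These are descriptions: the points share lines and replicates, and the 4 AID-JARID2 libraries stand apart in all 4 genes. Among 13142 other named genes, those with the highest r to Msgn1 were Sirt3 (0.976), Nit1 (0.969) and Cep164 (0.966), and Nub1 (0.972) and Tmbim6 (0.967) were among the 3 highest to Tbx6. To Mesp2 they were Vdac3 (0.986), Mrpl11 (0.976) and Abcb8 (0.976), and to Foxc1 Prdm1 (0.985), Myom1 (0.984) and Degs1 (0.978). Tcf15 was most like Clu (0.951), Rem2 (0.936) and Necab2 (0.935), and Meox1 most like Atp5h (0.933), Med21 (0.922) and Ndufa2 (0.920). Clu stood at 121 and 125 TPM with auxin and at 40.0 and 39.6 TPM untreated in AID-JARID2, and at 63.1 and 74.1 TPM with auxin and 23.8 and 19.0 TPM untreated in SUZ12-AID. Prdm1 followed Foxc1 at a lower level, at 3.88 and 4.02 TPM with auxin and 1.79 and 2.71 TPM untreated in SUZ12-AID, and under 1 TPM in all 4 AID-JARID2 libraries.

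The genes lie at separate loci, with Tbx6 (mm10, chromosome 7, 126781483 to 126785560, plus strand) and Mesp2 (79810727 to 79813439, plus strand) far apart on chromosome 7. Ypel3 ends 969 bp before Tbx6 on the same strand, and Ppp4c lies 306 bp beyond Tbx6 on the other strand. Ypel3 had a log2 fold change of 0.33 in SUZ12-AID (adjusted p = 0.0144) and of -0.57 in AID-JARID2 (adjusted p = 2.41e-04), both in the direction of Tbx6, while Ppp4c was called in neither. Anpep, an aminopeptidase gene 8364 bp from Mesp2 on the other strand, had a log2 fold change of 0.43 in SUZ12-AID (adjusted p = 0.0231) and of -0.88 in AID-JARID2 (adjusted p = 1.63e-04). Mesp1, the paralog of Mesp2 that marks early heart mesoderm, lies 16939 bp away on the other strand. Mesp1 fell in AID-JARID2, to 278 and 242 TPM with auxin against 461 and 429 TPM untreated (log2 fold change -0.78, adjusted p = 0.00204), where Mesp2 was not called. The nearest coding gene to Tcf15 (chromosome 2, 152143561 to 152149097, plus strand) is Srxn1, at 32185 bp, with a log2 fold change of 1.43 in SUZ12-AID (adjusted p = 6.27e-05) and of 1.53 in AID-JARID2 (3.13e-06). Msgn1 (chromosome 12, 11208360 to 11208972, minus strand) and Foxc1 (chromosome 13, 31806633 to 31812476, plus strand) had no neighbouring coding gene called with auxin in these 2 lines.

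Other genes of the lineage were read from 4 lists that share none of the 10 genes. The list of segmentation clock and NOTCH genes had 14 of 16 members tested, that of presomitic WNT, FGF and retinoid signalling 19 of 19, that of presomitic mesoderm and segmentation 18 of 20, and that of somite compartments and muscle precursors 15 of 23. No member of any list was called in MTF2-AID. In SUZ12-AID the counts of members called higher and lower with auxin were 2 and 1 for the clock list, 5 and 2 for the signalling list, 5 and 4 for the presomitic list and 5 and 1 for the somite list, beside 15.1% of all genes called higher and 4.05% called lower. The median log2 fold changes of the lists in that order were -0.01, 0.18, 0.23 and 0.45, beside 0.06 over all genes. In AID-JARID2 the counts were 5 and 6, 5 and 8, 4 and 9, and 4 and 4, beside 19.5% of all genes called higher and 17% called lower. The medians there were -0.30, -0.13, -0.30 and 0.01 beside 0.01 over all genes.

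**Figure D4:**
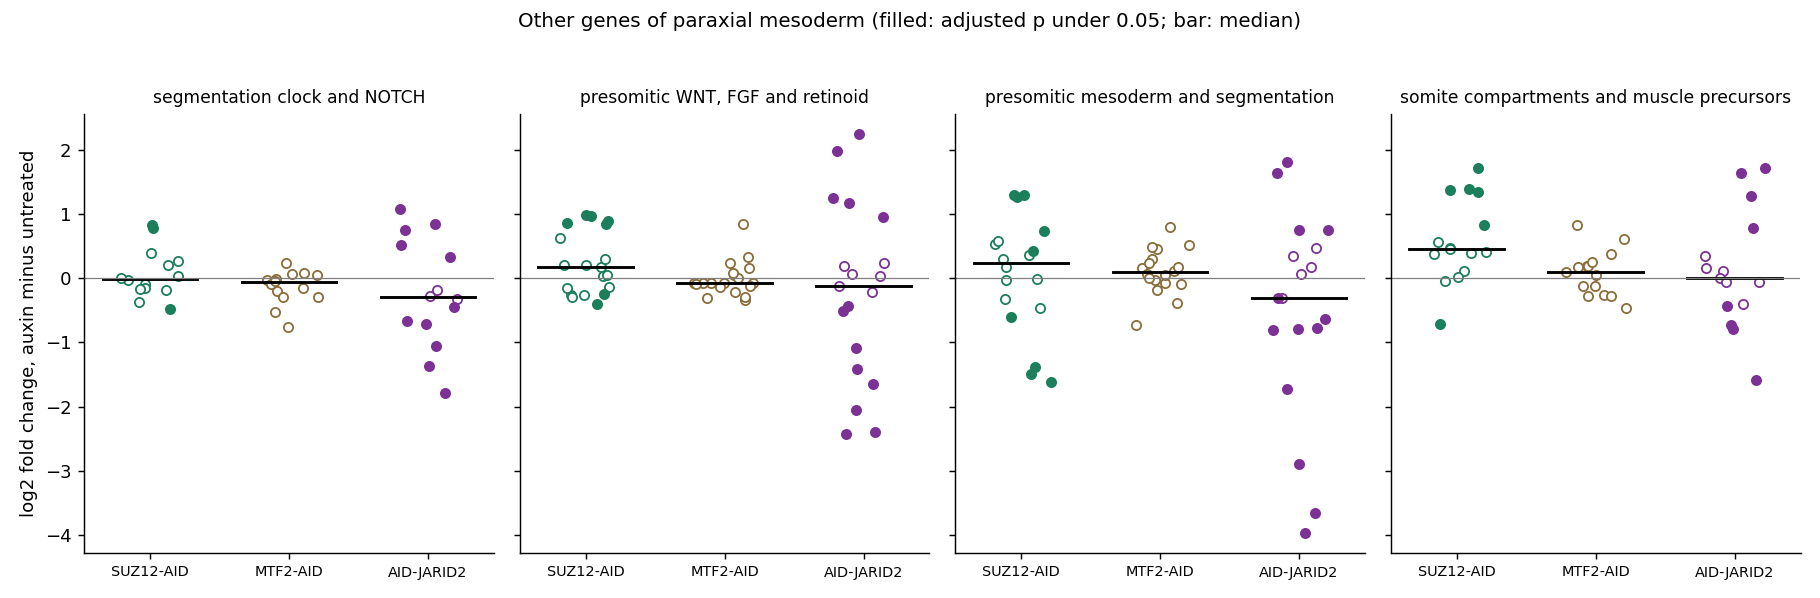
Log2 fold change of TPM + 1, auxin minus untreated, of the tested genes of 4 lists in each line; points are genes, filled points passed an adjusted p of 0.05, and bars are medians. In AID-JARID2 the presomitic list reaches down to -3.97 with 9 of 18 genes called lower and 4 called higher, where 17% and 19.5% of all genes were, and in MTF2-AID no point is filled.

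Among clock genes, Nrarp, a NOTCH target that dampens NOTCH signalling, rose in SUZ12-AID, to 12.1 and 12.6 TPM with auxin against 6.38 and 6.71 TPM untreated, and in AID-JARID2, to 21.5 and 22.9 TPM against 15.2 and 15.0 TPM untreated. Lfng, the glycosyltransferase that modifies NOTCH receptors in the clock, fell in SUZ12-AID, to 6.45 and 7.89 TPM with auxin against 10.1 and 10.6 TPM untreated. In AID-JARID2 it rose to 21.0 and 21.7 TPM with auxin against 11.4 and 11.5 TPM untreated (log2 fold change 0.84, adjusted p = 1.79e-04). The NOTCH effectors Hes1 and Hey2 fell in AID-JARID2. Hes1 was at 51.5 and 48.4 TPM with auxin and 135 and 125 TPM untreated, and Hey2 at 2.17 and 2.11 TPM with auxin and 8.82 and 10.9 TPM untreated.

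In the signalling list Dkk1, a secreted WNT inhibitor, moved in opposite directions. It rose in SUZ12-AID, to 39.6 and 34.3 TPM with auxin against 18.4 and 17.7 TPM untreated (log2 fold change 0.99), and fell in AID-JARID2, to 7.12 and 5.37 TPM against 37.4 and 38.2 TPM untreated (-2.43, adjusted p = 2.43e-07). Nkd1, an intracellular WNT antagonist, also fell in AID-JARID2, to 10.1 and 7.95 TPM with auxin against 50.9 and 52.0 TPM untreated. Dusp6, a phosphatase of ERK, rose there to 485 and 534 TPM with auxin against 131 and 125 TPM untreated, and Spry4, an inhibitor of receptor tyrosine kinase signalling, rose to 66.8 and 72.8 TPM with auxin against 14.9 and 12.8 TPM untreated. Spry4 rose in SUZ12-AID as well, to 22.9 and 25.8 TPM with auxin against 12.4 and 12.8 TPM untreated. The receptors Fgfr1 and Rarg fell in SUZ12-AID by 0.40 and 0.25 on the log2 scale. In AID-JARID2 Fgfr1 fell too (-1.09, adjusted p = 4.19e-06), and Rarg was not called (0.18, adjusted p = 0.0579).

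In the presomitic list Cdx2, a caudal homeobox factor of the tail end, fell in both lines. It was at 98.8 and 73.2 TPM with auxin and 234 and 212 TPM untreated in SUZ12-AID, and at 9.10 and 8.19 TPM with auxin and 126 and 116 TPM untreated in AID-JARID2. Its relative Cdx4 was at 0.890 and 0.383 TPM with auxin and 22.5 and 26.3 TPM untreated in AID-JARID2 (log2 fold change -3.97, adjusted p = 2.70e-06). Cdx4 also fell in SUZ12-AID (log2 fold change -1.49, adjusted p = 0.00454). Hoxb1 fell in both lines, by 1.61 on the log2 scale in SUZ12-AID (adjusted p = 1.06e-04) and more in AID-JARID2 (log2 fold change -2.89, adjusted p = 2.20e-07). Fst, the activin-binding protein follistatin, rose in AID-JARID2 by 1.64 on the log2 scale and was not called in SUZ12-AID (0.29, adjusted p = 0.169). The coregulator Cited1 rose in SUZ12-AID by 1.27 on the log2 scale and fell in AID-JARID2 (-0.64, adjusted p = 0.0132).

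In the somite list the receptor Met, which muscle precursors need to migrate, rose in both lines, to 6.56 and 11.6 TPM with auxin against 2.70 and 2.96 TPM untreated in SUZ12-AID and to 6.57 and 7.92 TPM against 1.55 and 1.71 TPM in AID-JARID2. Gli2, an effector of Hedgehog signalling, fell in both, by 0.71 on the log2 scale in SUZ12-AID and by 1.58 in AID-JARID2. Tgfb2 rose in SUZ12-AID by 1.37 and fell in AID-JARID2 (log2 fold change -0.44, adjusted p = 0.0224). Twist1, a factor of somite and head mesenchyme, fell in AID-JARID2 by 0.78 and rose in SUZ12-AID (0.82, adjusted p = 4.08e-04). Fgf4 rose in AID-JARID2 by 1.72 and was not called in SUZ12-AID (0.57, adjusted p = 0.0725). The muscle regulators Myf5, Myod1 and Myf6 and the compartment factors Pax7, Pax9, Nkx3-2, Sim1 and Lbx1 did not pass the expression filter, as Pax1 and Pax3 did not. The pluripotency, endothelial, and lateral plate and cardiac sums also differed with auxin in SUZ12-AID and AID-JARID2, while the streak sums were similar. Some genes, among them T, Mesp1, Evx1 and Fgf8, are both in these lists and among the streak markers. The part of the markers in the changes of the listed genes was not tested.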

How the data were processed

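Polyadenylated RNA of 12 libraries was sequenced from strand-specific libraries, per the labels' protocols. The authors deposited a table of TPM values per gene symbol with 12 library columns and no unused column. Reads were aligned with STAR 2.6.1d to mm10, per the submitters' processing notes, and the counting program and its annotation were not given in the sources used here. Whole reads were recovered from steps of the TPM values (tolerance 0.001 reads) and are used only as descriptions. Genes that reached 1 TPM in 2 or more libraries (15663) were fitted as log2(TPM + 1) with limma 3.58.1 in R 4.3.3, with 1 term per group and a trend in eBayes, 6 residual and 3.9 prior degrees of freedom. A fold change on this scale understates the change of low genes. Tests were two-sided. The gene positions are those of GENCODE vM21 on mm10. The genes, lists and tests were chosen with earlier results of these data known. From each list at most 2 called increases and 2 called decreases per line were named, the largest among genes averaging 5 TPM or more in their higher group, and the 3 genes most like each tested gene by Pearson's r. Alternatives were other pseudocounts (0.1 and 5 TPM), filters (none and 5 TPM), scalings and variance weights, each line alone, a replicate block and leaving out each library. Some of the genes this rule picks are not reported here.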

Additional observations from a re-analysis of the deposited data

Results flagged for a closer look

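For 3 of the genes the auxin effect differed between lines by a test of the difference itself. The auxin effect on Msgn1 in AID-JARID2 minus that in MTF2-AID was -2.50 on the log2 scale. For Tbx6 the effect in AID-JARID2 minus that in SUZ12-AID was -1.19, and that in MTF2-AID minus SUZ12-AID was -0.76. For Foxc1 the effect in MTF2-AID minus that in SUZ12-AID was -0.94.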

How the results depend on the processing

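Of 54 comparisons of a gene, 19 were called. Under 21 alternative settings, 12 of which leave out a library, these gave 384 values, of which 360 kept their call and 24 lost it, and none changed sign. Foxc1 in SUZ12-AID, Msgn1 in AID-JARID2, Tbx6 for AID-JARID2 minus SUZ12-AID, Msgn1 for AID-JARID2 minus MTF2-AID and the 9 calls between untreated lines lost their call in no setting. Among the 35 comparisons not called, 26 of 694 values passed and 21 changed sign with neither value called.

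The number of genes called in SUZ12-AID, 3, was 5 without a filter, 1 with quantile normalization and 1 with a variance weight per line (0.50 for SUZ12-AID, 1.29 for MTF2-AID and 1.54 for AID-JARID2), and 1 to 3 without each library. In AID-JARID2 it was 3, and 1 to 4 without each library. For AID-JARID2 minus SUZ12-AID it was 1, and 2 with a pseudocount of 5 TPM, without a filter, with the filter at 5 TPM and with the replicate block, and 1 to 2 without each library. For MTF2-AID minus SUZ12-AID it was 2, and 1 with the variance weight and 0 to 3 without each library. For AID-JARID2 minus MTF2-AID it was 1, and 2 with a pseudocount of 0.1 TPM and with the variance weight. For untreated MTF2-AID minus untreated SUZ12-AID it was 1, and 3 with the replicate block and 1 to 2 without each library. Between untreated AID-JARID2 and untreated SUZ12-AID it was 4, and 4 to 5 without each library. It stayed at 0 in MTF2-AID and at 4 between untreated AID-JARID2 and untreated MTF2-AID. The counts without a filter cover all 10 genes rather than 6. In SUZ12-AID this added Pax1 and Pax3, and for AID-JARID2 minus SUZ12-AID it added Pax3. The cause of the shifts in these counts was not tested.

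The labels do not say whether replicate numbers mark pairs. Deviations of same-numbered libraries correlated at 0.10 in SUZ12-AID, -0.04 in MTF2-AID and 0.01 in AID-JARID2. With 2 libraries per group these values cannot decide it. With the replicate block Msgn1 passed in SUZ12-AID (-0.94, adjusted p = 0.0138), for MTF2-AID minus SUZ12-AID (0.00930) and between these untreated lines (0.0224). Meox1 passed in AID-JARID2 (0.0317) and between untreated MTF2-AID and SUZ12-AID (0.0237), and Foxc1 for AID-JARID2 minus SUZ12-AID (0.0430).

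Over all genes, 2997 were called in SUZ12-AID (2362 higher and 635 lower), 1194 with the variance weight, 1144 with the line alone and 1322 without auxin replicate 2. Scaling by median of ratios split the calls into 2102 higher and 1548 lower, and quantile normalization, which moved the median of all genes by -0.10, into 1605 and 1418. For AID-JARID2 minus SUZ12-AID the split of 1410 higher and 2355 lower became 2010 and 2125 with the first and 2098 and 2058 with the second, for MTF2-AID minus SUZ12-AID 313 and 1427 became 728 and 1353 and then 573 and 1049, and for untreated MTF2-AID minus untreated SUZ12-AID 861 and 494 became 760 and 735 and then 809 and 787. The 10 genes of MTF2-AID became 3 to 164, and the 5710 of AID-JARID2 became 3697 without auxin replicate 2. For MTF2-AID minus SUZ12-AID 1740 became 1103 with the weight and 909 to 2463 without each library, and between these untreated lines 1355 became 845 with the weight, 2821 with the block and 523 to 4092 without each library. Untreated AID-JARID2 against SUZ12-AID gave 4319, and 2352 to 5642 without each library, and against MTF2-AID 5233, and 3399 to 6125. Depth limits Tcf15, Meox1, Meox2, Pax1, Pax3 and Ripply2, which had at most 41 reads in a library.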
